A study of Rattus norvegicus with 26 samples.

Results

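A dense run of genes on rat chromosome 5, given here under the working name of the major urinary protein cluster, was followed through the liver cells and liver tissue of a hepatocyte transplantation study. The window ran from 77245143 to 78131114, a stretch of 885972 nt, in the coordinates of the count files, whose genome build the sources used here do not name. It held 45 of the 32552 counted genes, and the 10 with the highest raw counts summed over the 26 libraries were taken as members. The window had been picked in earlier work on these data as a run lower in fetal than in adult cells, so that difference is described below and not tested.

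Major urinary proteins are small lipocalins, barrel-shaped carriers that the liver secretes into the blood and that pass into the urine, where they bind volatile signals. In rats the family is also known as alpha-2u-globulin, a major product of the adult male liver that depends on androgen, growth hormone and glucocorticoids. Its genes lie side by side as near-identical copies, mixed with pseudogenes.

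The files name genes by Ensembl identifier only, and 0 of their 32552 identifiers matched the RefSeq table used here, so the label could not be checked gene by gene and no gene symbol is given. In that table, made for the GRCr8 assembly, 14 genes carry a Mup symbol, 6 of them protein coding and 8 pseudogenes, and all 14 lie on chromosome 5 within 31 neighbouring entries. For the same reason the hepatocyte label of the cells could not be set against defining markers. The members are called gene 1 to gene 10 in order of position.

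All 26 libraries are RNA-seq of rat liver. Captured tissue came from 5 transplanted animals (numbered 242, 243, 246, 248 and 249), each giving 1 library of fetal-derived colony and 1 of the adult host liver around it. The labels give these numbers as biological replicates, and each is taken here as an animal. Both were cut by laser capture, extracted with the PicoPure kit and made into libraries with the SMARTer Stranded Total RNA-seq Pico kit. Cells taken before transplantation were pellets of hepatocytes, extracted with RNeasy and prepared with NEBNext Ultra, in 4 groups of 4 libraries. They were fetal cells sorted as LAP+/OC2+, as LAP+/OC2- (numbered 1, 3, 4 and 5) or as LAP+, and adult hepatocytes. The labels used here give no strain, sex, age or time after transplantation, and they call the replicates biological without naming the source animal of the cells. Kit, material and capture all changed between tissue and cells, so no level is compared across that line.

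Libraries held 7871347 to 16874438 counts. Levels are CPM, the counts of a gene per 1000000 counts of a library size scaled by TMM, and RPKM where genes are compared with each other, since it also divides by exon length. In LAP+/OC2+ libraries 38.9% to 78.6% of the counts were mitochondrial, against 4.11% to 10.3% in the other cell libraries. A pair of cell libraries stood apart in these genes, namely adult library 2 and LAP+/OC2+ library 2, and results that rest on them are given with and without them.

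The run is built from repeated exons. All 10 genes lie on the minus strand, as do 44 of the 45 in the window, and together they hold 98.6% of the window's counts (763380 of 773929). Exons of 102 nt and of 111 nt each occur in 8 of the 10, against 5.08% and 4.75% of all genes counted. A run of neighbouring exons of 74, 111 and 102 nt, read in the direction of transcription, occurs in genes 1 to 6, in 10 of the 45 genes of the window, and in 1 of all the other genes counted. Gene 8, with exons of 1149, 129 and 82 nt, has none of these lengths.

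The repeats reach whole gene models. Gene 4, at 77430401 to 77433847, has 872 nt of exon in 7 blocks, and 2 other genes of the window have the same 872 nt and 7 blocks. The first of them, at 77338853 to 77342299, lies 91548 nt before gene 4. A pair of genes with 1755 nt of exon in 3 blocks lies the same 91548 nt apart.

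Several models also span their neighbours. Gene 1 (ENSRNOG00000009273, 77245143 to 77492013) overlaps in span, in part or in full, with 19 other genes of the table. Gene 3 (ENSRNOG00000050595, 77405142 to 77903113) overlaps with 24, and gene 6, at 77564024 to 77903062, overlaps with 14. Genes 1 to 7 share 18.3% to 58.8% of their exon bases with other counted genes, while genes 8, 9 and 10 share none. The sources used here do not say how reads that match several copies were counted, so the split of reads between members is uncertain and the sum over the 10 is the firmer value.

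Counts were concentrated in few members. Gene 1 had 319985 counts in all and gene 3 had 302677, followed by gene 7 (77744450 to 77749613) with 69040 and gene 10 (77998638 to 77999495) with 30026. Gene 9, at 77917409 to 77918924, had 13677, and gene 2, at 77313357 to 77433854, had 9868. The lowest members were gene 6 with 7944, gene 5 (77489709 to 77492010) with 4216, gene 8 (77830577 to 77837114) with 3308 and gene 4 with 2639. Just outside the selection were a plus-strand gene at 78.12 Mb with 1933 counts and a 99 nt gene at 77.57 Mb with 1710. The first of these differed less between groups than the members, at 2.06 to 3.32 CPM in LAP+/OC2+, 2.58 to 3.59 in LAP+/OC2-, 2.44 to 6.91 in LAP+ and 8.25 to 10.6 CPM in adult cells.

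The summed level of the 10 genes separated the cell groups by orders of magnitude. It was 45.2, 0.237, 36.04 and 18.2 CPM in LAP+/OC2+ libraries 1 to 4, and 46.2, 43.8, 30.8 and 24.7 CPM in LAP+/OC2- libraries 1, 3, 4 and 5. In LAP+ libraries it was at most 0.0513 CPM, and in adult libraries it was 6596, 31.6, 7335 and 6032 CPM. All LAP+ libraries lay below all LAP+/OC2- libraries, LAP+/OC2+ library 2 lay near LAP+, and adult library 2 lay inside the range of the LAP+/OC2- libraries.

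**Figure D1:**
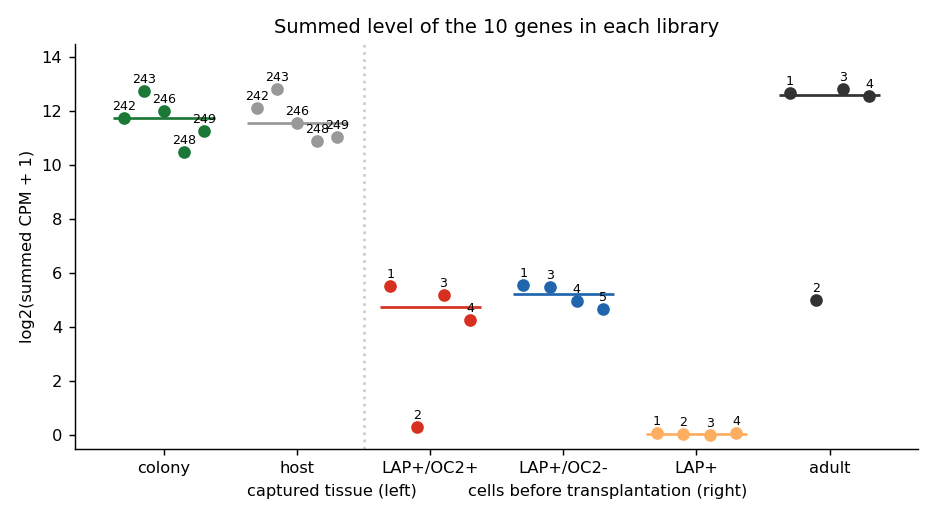
Summed level of the 10 genes in each library, as log2(CPM + 1), with the library or animal number above each point and the group median as a line. Adult library 2 (31.6 CPM) sits with the LAP+/OC2- libraries and LAP+/OC2+ library 2 (0.237 CPM) beside the LAP+ libraries, while the other 3 adult libraries lie between 6032 and 7335 CPM.

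LAP+ cells had almost no reads of these genes. In the 4 LAP+ libraries together, 3 of 61869214 counts fell on the 10 genes, 1 each on genes 1, 3 and 8, and 7 genes had none. The pooled level was 0.0370 CPM (95% exact Poisson interval 0.00764 to 0.108, counting error only), and a count of 0 in a library allows up to 0.132 to 0.159 CPM. Against adult cells without library 2, gene 7 was at least 5427-fold lower in LAP+, gene 9 at least 1539-fold and gene 10 at least 1098-fold, taking a floor of 3 counts per LAP+ library. With all 4 adult libraries the bounds were 4077-fold, 1156-fold and 824-fold. This is the contrast by which the window was chosen. As background to it, 35.3% of the 13818 genes tested passed the adjusted threshold as lower in fetal cells, taken as the mean over the 3 sorts, than in adult hepatocytes. In bulk RNA, fewer cells of a type and less RNA per cell cannot be told apart.

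Adult library 2 lacked most of the signal of the other adult libraries. Gene 1 had 11.98 CPM in adult library 2, against 2382, 2717 and 2513 CPM in adult libraries 1, 3 and 4. Gene 3 had 12.2 CPM there, against 2467, 2981 and 2231 CPM. Gene 7 had 4.19 CPM, against 985, 849 and 590 CPM, and gene 4 had 0.196 CPM, against 59.6, 56.7 and 54.0 CPM. All 10 members were lower in library 2 than in each of the other 3, as were 29% of the 17060 genes with a mean of at least 1 count in the cell libraries. The median of the others was 123-fold (gene 8) to 426-fold (gene 5) the level in library 2, and 209-fold for the sum.

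Library 2 was the sole adult library that differed in this way. Of the 2088 genes with at least 50 CPM in the other 3 adult libraries, 30 were at least 10-fold lower in library 2. Among these were 8 of the 10 members. Genes 5 and 8 were not counted, since their lowest levels in the other adult libraries, 25.56 and 3.749 CPM, lay under the 50 CPM limit. The 30 also held 22 genes outside the window, and 13 genes were at least 10-fold higher in library 2. The same count for adult libraries 1, 3 and 4 gave 0 in either direction. The summed level of the 47 genes on chromosome Y was 3.73 CPM in adult library 2, against 120 to 143 CPM in the other adult libraries. It was 102 to 154 CPM in colony and 112 to 200 CPM in host. Whether donor, sex or handling had a part in the low level was not tested.

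Genes on either side of the run were not low in adult library 2. The 34 genes within 1000000 nt on either side of the window summed to 9028 CPM in adult library 2, against 6388 to 7436 CPM in the other adult libraries. The other 35 genes of the window summed to 9.03 CPM, against 85.8 to 106 CPM. The plus-strand gene at 78.12 Mb accounted for 8.25 CPM of that sum and was not low, at 9.22 to 10.6 CPM in the other adult libraries.

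On TMM-scaled library sizes, reads of the run reached the LAP+/OC2+ and LAP+/OC2- sorts at under 1% of the adult level. The percentage depended on scaling. Of the nuclear counts, those outside the mitochondrial genes, the run took 4.29e-05% to 0.00912% in LAP+/OC2+ libraries and 0.00311% to 0.00675% in LAP+/OC2- libraries. It took 0.614% to 0.764% in adult libraries 1, 3 and 4. In CPM, relative to the mean of adult libraries 1, 3 and 4, the summed level was 0.678%, 0.00357%, 0.542% and 0.273% in LAP+/OC2+ libraries 1 to 4. It was 0.694%, 0.658%, 0.462% and 0.371% in LAP+/OC2- libraries 1, 3, 4 and 5, and 0.475% in adult library 2. These fetal values rest on 175, 1, 221 and 158 counts in LAP+/OC2+ and on 985, 950, 547 and 500 counts in LAP+/OC2-.

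**Figure D2:**
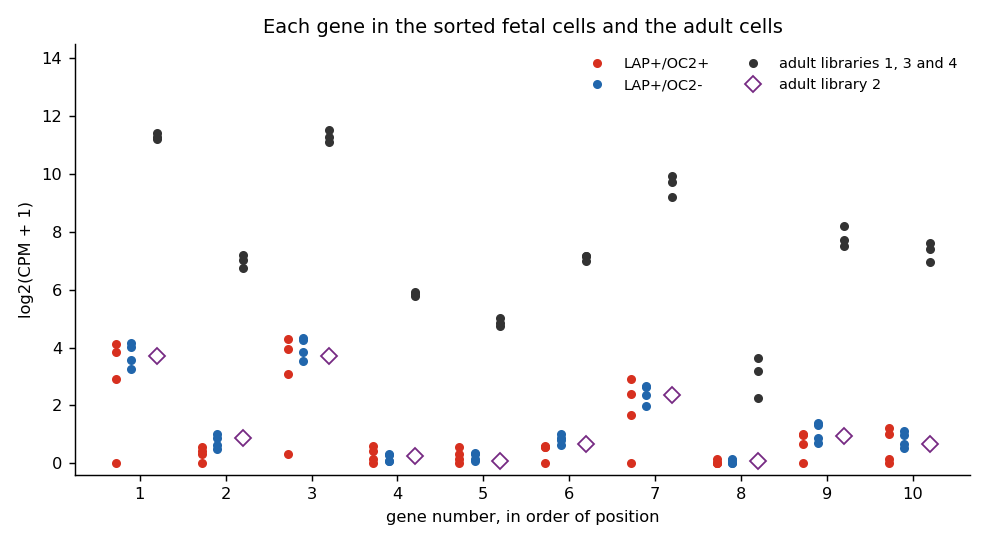
Level of each gene as log2(CPM + 1) in LAP+/OC2+, LAP+/OC2- and adult cells, 1 point per library, with adult library 2 as an open diamond. For every gene the diamond lies far below the other adult libraries and close to the fetal sorts, as for gene 1 at 11.98 CPM beside 8.65 to 16.8 CPM in LAP+/OC2-.

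The 2 OC2 sorts were not told apart in these genes. Gene 1 had 16.5, 0, 13.4 and 6.56 CPM in LAP+/OC2+ libraries 1 to 4, against 16.8, 15.1, 11.02 and 8.65 CPM in LAP+/OC2- libraries 1, 3, 4 and 5. Gene 3 had 18.6, 0.237, 14.52 and 7.48 CPM in LAP+/OC2+, against 19, 18.3, 13.3 and 10.5 CPM in LAP+/OC2-. The groups overlapped for both genes. Of the 7 members that passed the low-count filter (genes 4, 5 and 8 did not), 0 were called, against 67.5% of all 13818 genes tested, by edgeR's quasi-likelihood test with Benjamini-Hochberg adjustment.

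At an unadjusted p under 0.05 the count was also 0, as it was by DESeq2 and limma-voom. Fitted log2 differences ran from -1.21 (gene 2) to -0.48 (gene 10), with adjusted p from 0.611 to 0.834, against a median of -0.18 over all genes tested. The intervals were wide. Gene 1 differed by -0.51 (95% interval -2.69 to 1.67) and gene 3 by -0.59 (-2.72 to 1.54), so differences of several fold in either direction were not detectable. Without adult library 2, which enters the shared estimate of spread, 1 of 10 members was called, gene 6, lower by a log2 difference of -1.02 (edgeR adjusted p = 0.044), against 37% of genes called lower. Gene 6 rested on 9 counts in the LAP+/OC2+ libraries and on 64 in the LAP+/OC2- libraries. It did not pass the filter on the 8 libraries compared, where genes 1, 3 and 7 alone did. In the fit without adult library 2, its counts in LAP+/OC2-, where it was higher, were enough to pass. Its call is therefore no separate support for a difference.

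Set against LAP+, genes 1, 3 and 7 were called higher in LAP+/OC2+ (edgeR adjusted p of 0.00108, 0.000793 and 0.0138). That is 3 of the 7 tested, near the 32% called higher among all genes tested, so the count is not a result about the members. All 7 passed the low-count filter only through libraries outside the comparison, since 0 of the 10 passed it on the 8 libraries compared. The ratio was 718 (95% interval 127 to 28485) for gene 1, resting on 203 counts against 1, and 802 (143 to 31837) for gene 3, on 227 counts against 1. Gene 7, with 25, 0, 26 and 19 counts in LAP+/OC2+ libraries 1 to 4 and none in LAP+, was at least 21.6-fold higher. Library 2 did not share the difference. By limma-voom 0 of 7 were called (adjusted p of 0.103, 0.0969 and 0.189 for genes 1, 3 and 7). In edgeR without adult library 2, 9 of 10 were called higher, against 31.7% of genes, and without LAP+/OC2+ library 2 the count stayed at 3. The mitochondrial share of 38.9% to 78.6% in LAP+/OC2+ moved with this comparison, and its part in the result was not tested.

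The LAP+/OC2- cells showed the same traces on deeper libraries. Gene 3 was called higher than in LAP+ (edgeR adjusted p = 0.0365), 1 of 7 members, against 0.246% of all genes tested, and gene 1 had an adjusted p of 0.0525. The ratios were 1250 (95% interval 224 to 49429) for gene 3 and 1058 (189 to 41809) for gene 1. Gene 7, with 110, 118, 73 and 60 counts in LAP+/OC2- libraries 1, 3, 4 and 5 and none in LAP+, was at least 29.7-fold higher, at an adjusted p of 0.219. For 9 of the 10 genes, gene 8 being the exception, every LAP+/OC2- library lay above every LAP+ library, as for 2.02% of the 17060 genes with a mean of at least 1 count in the cell libraries. LAP+ entered the fetal mean by which the window was chosen, and had almost no reads of these genes. Few reads in LAP+/OC2- were then enough for this order, so the order is no separate support for a difference.

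The number called in that comparison changed with single libraries. Without adult library 2, 7 of 10 members were called higher in LAP+/OC2-, against 0.425% of genes. Leaving out any 1 of the 8 libraries compared left 0 called, as did limma-voom and the fit with no low-count filter. On the 8 libraries compared alone, 5 members passed the filter and 5 were called higher. In that fit 56 of all 13118 genes tested were called, in either direction. LAP+ held 3 counts over all 10 genes, so these 5 passed the filter only through LAP+/OC2-, where they were higher. Their count is therefore no separate support for a difference. Both comparisons share their LAP+ libraries and the fit shares its spread across all cell groups, so they are not independent of each other. The low LAP+ level was part of the contrast by which the window was chosen. In either comparison, the share of members called against LAP+ is therefore that of a selected run and no separate support for a difference.

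The abundant members had similar shares in the traces and in adult cells. By RPKM, gene 7 made up a mean of 32.1% of the summed level in LAP+/OC2+ libraries 1, 3 and 4, 31.2% in LAP+/OC2-, 33.5% in adult library 2 and 30.2% in adult libraries 1, 3 and 4. Gene 3 made up 26.4%, 27.4%, 24.9% and 24.6% in the same order of groups, and gene 1 made up 22.1%, 21.6%, 22.9% and 23.0%. Genes 7, 3 and 1 took the first 3 places by median RPKM in each of the 4 groups, and gene 8 the last. Less abundant members, read on few counts, varied more. Gene 4 made up 0.373% in LAP+/OC2- and 0.894% in adult libraries 1, 3 and 4, and gene 5 made up 1.44% in LAP+/OC2+ libraries 1, 3 and 4 and 0.716% in those adult libraries.

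Other genes near silent in LAP+ cells gave values to set beside these traces, in sets chosen after their values were seen and so described without a test. Outside the window, 8 genes had at least 100 CPM in adult libraries 1, 3 and 4, under 0.05% of that in LAP+, and were at least 10-fold lower in adult library 2. Their median level in LAP+/OC2+ libraries 1 to 4 was 0.600%, 0%, 0.441% and 0.323% of adult, and 0.379% to 0.704% in LAP+/OC2-. A further 11 genes, as adult-restricted but not low in adult library 2, stood at 0.650%, 0.838%, 0.466% and 0.320% in LAP+/OC2+ and at 0.558% to 0.998% in LAP+/OC2-. LAP+/OC2+ library 2 had no count for 5 of the 8 genes of the first set (30 counts in all), and reads of all 11 of the second (622 counts).

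A set of 6 genes high in adult library 2 alone, chosen with a looser limit in LAP+, ran the other way. These had at least 100 CPM in adult library 2 and at least 10-fold the level of every other adult library. Their LAP+ mean was under 1% of adult library 2, where the earlier sets were held under 0.05% of adult. As a percentage of adult library 2, their median was 0.735% in LAP+/OC2+ library 2, against 0.112%, 0.00699% and 0.0161% in LAP+/OC2+ libraries 1, 3 and 4. It was 0.245% to 0.478% in LAP+/OC2- and 0.0221% to 0.210% in LAP+. The source of the traces was not tested.

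In transplanted animals, colonies and host liver carried the run at overlapping levels. The summed level was 3442, 6944, 4102, 1431 and 2454 CPM in the colonies of animals 242, 243, 246, 248 and 249, against 4431, 7293, 3018, 1925 and 2116 CPM in the host tissue of the same animals. It averaged 3674 ± 2089 CPM in colony and 3756 ± 2211 CPM in host (SD, n = 5 each). The log2 difference within animals averaged -0.04 ± 0.37 (SD, n = 5), higher in colony in 2 of 5. The sign depended on scaling, since on nuclear counts without TMM the mean was 0.21 ± 0.31, higher in 4 of 5.

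None of the 10 genes was called between colony and host. The count was 0 of 10 by edgeR's quasi-likelihood test with animal as a block, against 1.17% of the 22303 genes tested, and it was also 0 at an unadjusted p under 0.05 and by DESeq2 and limma-voom. Fitted log2 differences ran from -0.19 (gene 6) to 0.53 (gene 4), with a median of 0.01, against 0.11 over all genes tested, and 5 of 10 were positive. Adjusted p ran from 0.457 to 0.989.

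For the abundant members the intervals were narrower than for gene 4, but they rest on TMM scaling and on spread borrowed across genes. The log2 differences of the 5 animals themselves had an SD of 0.32 for gene 3, 0.44 for gene 1 and 0.39 for genes 7 and 10. Gene 3 had 1488, 2658, 1705, 604 and 1103 CPM in colonies 242, 243, 246, 248 and 249, against 1792, 2666, 1300, 748 and 893 CPM in host, a log2 difference of 0.02 (95% interval -0.25 to 0.30). Gene 1 differed by -0.12 (-0.41 to 0.16), gene 7 by 0.08 (-0.19 to 0.34) and gene 10 by 0.00 (-0.27 to 0.26). Gene 4, at 0.886 to 2.18 CPM in colony and 0.198 to 2.32 CPM in host on 2 to 32 counts a library, had the widest interval (-0.84 to 1.90).

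The direction within an animal depended on scaling. With TMM, in animals 246 and 249 all 10 genes were higher in colony, by a median log2 difference of 0.39 and 0.29. In animal 242, 1 of 10 was higher (median -0.36), in animal 243, 2 of 10 (-0.04), and in animal 248, 2 of 10 (-0.20). On nuclear counts without TMM, 5, 10, 9, 5 and 10 of the 10 were higher in the colonies of animals 242, 243, 246, 248 and 249. The genes share reads and neighbours, so these counts describe 5 animals and not 50 independent values.

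**Figure D3:**
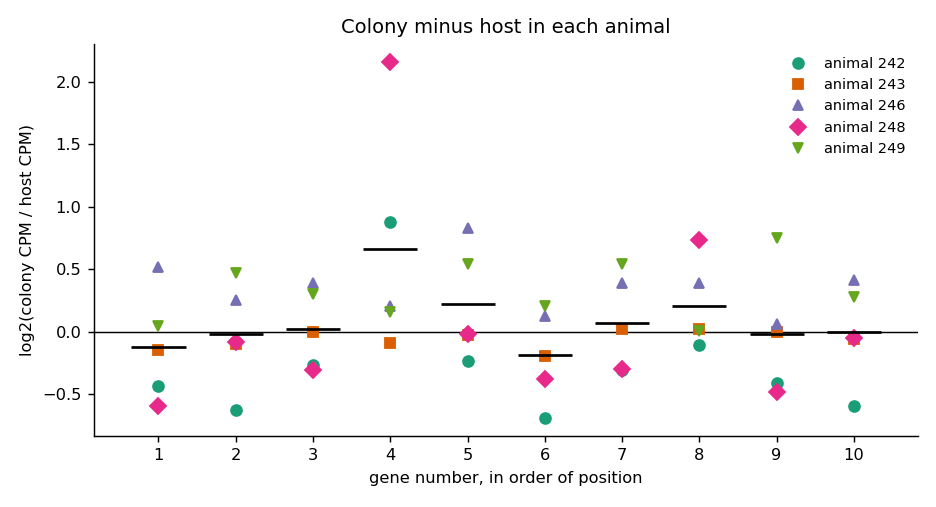
log2 ratio of colony CPM to host CPM for each gene in each of the 5 animals, with the mean over animals as a bar, on TMM-scaled library sizes. On that scale animals 246 and 249 lie above 0 for all 10 genes and animal 242 below 0 for 9, and the bars stay near 0 except for gene 4, read on 2 to 32 counts a library.

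The animals themselves spanned a wider range. The summed level was highest in animal 243 and lowest in animal 248, by 4.85-fold in colony and 3.79-fold in host, with a coefficient of variation of 56.8% and 58.8%. Among the 9 members with a mean of at least 10 CPM, the ratio of the highest to the lowest animal had a median of 5.14 in colony and 5.38 in host. Over all genes at that level the median ratio was 1.54 in colony and 1.58 in host.

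Gene 7 spread most among these 9 and gene 8 least in colony. Gene 7 had 192, 629, 297, 32.0 and 191 CPM in colonies 242, 243, 246, 248 and 249, against 239, 621, 227, 39.5 and 131 CPM in host. That is a 19.7-fold range in colony and a 15.7-fold range in host, set by the low level of animal 248 in both tissues. Gene 8, without the repeated exon lengths, had 32.7, 27.8, 28.4, 16.3 and 18.6 CPM in colony, a 2.01-fold range, against 35.2, 27.4, 21.6, 9.79 and 18.5 CPM in host, a 3.60-fold range. Its highest animal was 242, where that of the other members was 243.

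The proportion of gene 7 differed among animals in much the same way in both tissues. Its counts were 12.6%, 20.8%, 16.8%, 4.79% and 19.95% of those of gene 1 in colonies 242, 243, 246, 248 and 249, against 11.6%, 18.5%, 18.4%, 3.91% and 14.1% in host. Animal 248 was lowest and animal 243 highest in each. Whether transcript level, allele or read assignment sets this proportion was not tested.

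**Figure D4:**
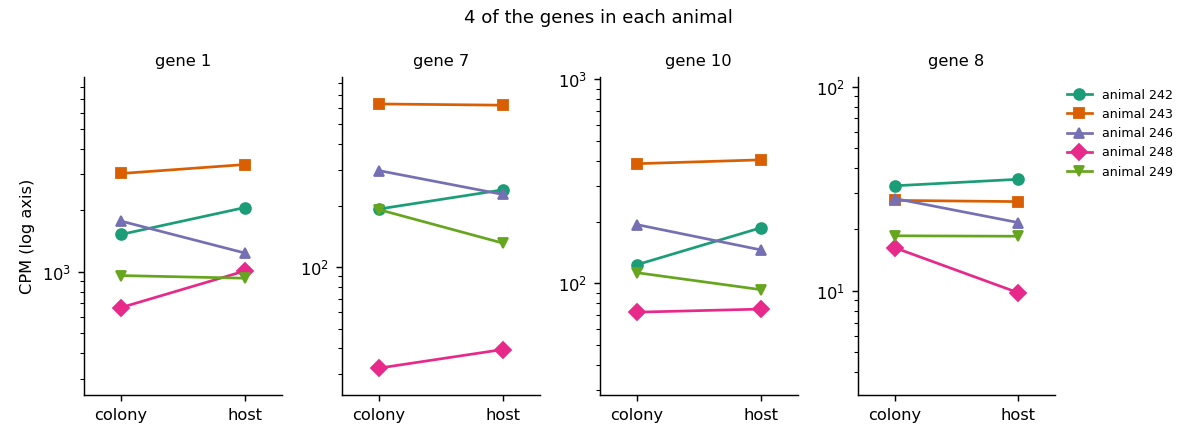
Level of genes 1, 7, 10 and 8 in colony and host of each animal, on log axes, with a line joining the tissues of an animal. Animal 243 lies above animal 248 for each of the 4 genes in both tissues, most widely for gene 7 (629 and 32.0 CPM in colony).

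The order of the members was nearly the same in both tissues. By median RPKM, gene 3 led with 1050 in colony and 918 in host, followed by gene 1 with 1005 and 815, gene 7 with 532 and 627, and gene 10 with 405 and 479. Gene 9 stood at 77.9 and 90.7, and gene 5 at 34.7 and 29.2. Gene 4 was last, at 1.15 and 1.03. Genes 1 and 3 together took 81.9% to 88.9% of the members' counts in colony and 82.5% to 91.3% in host. Neighbours in this order overlapped in their ranges for genes 1 and 3, at 441 to 1999 and 427 to 1876 RPKM in colony.

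**Figure D5:**
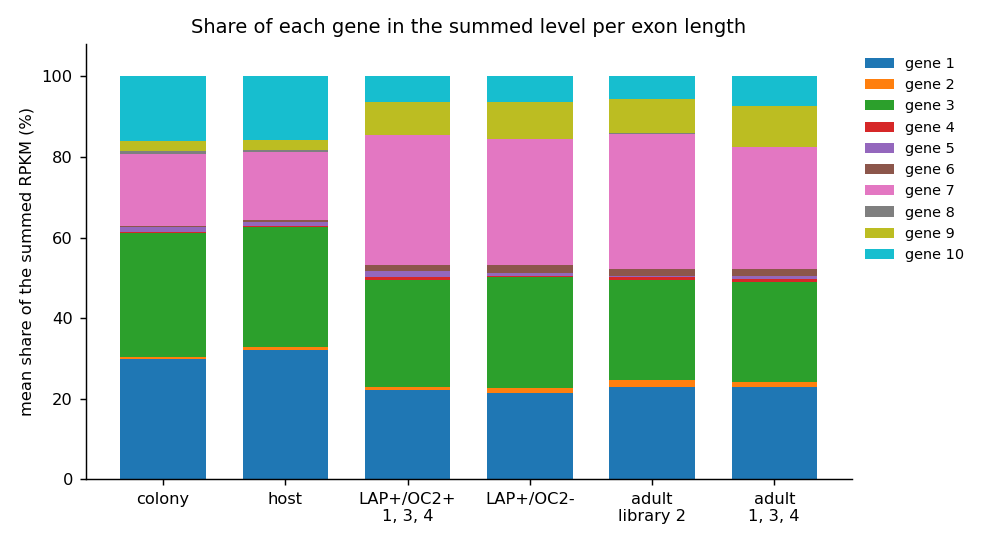
Mean share of each gene in the summed RPKM of the 10, as a percentage, in captured tissue and in cells. Gene 7 takes 17.9% in colony and 16.9% in host, and 30.2% to 33.5% in the 4 cell groups drawn, and gene 10 takes 15.96% in colony and 15.7% in host.

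In adult cells the order was different, given here side by side because kit and material cannot be told apart from it. In adult libraries 1, 3 and 4 the median RPKM was 2344 for gene 7, 1741 for gene 3, 1657 for gene 1, 675 for gene 9 and 557 for gene 10. Gene 8 was last, at 5.91. Gene 4 had 2.502%, 2.09% and 2.15% of the counts of gene 1 in adult libraries 1, 3 and 4, and 0.0649% to 0.133% in colony and 0.0196% to 0.144% in host.

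The neighbours of the run were read in every cell group. In the 34 flanking genes the sum was 621 to 841 CPM in LAP+/OC2+, 3842 to 4864 in LAP+/OC2-, 4039 to 5359 in LAP+ and 6388 to 9028 CPM in adult cells. Between LAP+/OC2+ and LAP+/OC2-, 3 of the 25 flanking genes tested were called higher and 11 lower by edgeR, against 30.8% and 36.6% of all genes tested. Between colony and host, 0 of 28 tested flanking genes and 0 of 13 tested other genes of the window were called, against 1.17% of all genes.

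Outside the window, the pattern over the 4 cell groups was closest at a gene on chromosome 1, from 148053687 to 148119857, and at one on chromosome 13, from 47572219 to 47591699. Their root mean square distances from the summed members, over 4 group means of log2(CPM + 1), were 0.444 and 0.542, against a median of 3.87 over 7386 genes. In adult library 2 they stood at 6281 and 4151 CPM, and neither had the drop of the members. Their medians over the 4 adult libraries were 1466 and 5017 CPM. The gene ranked 5 by this distance, on chromosome 2 and named after its values were seen, stood at 139.5 CPM in adult library 2. Its median over the 4 adult libraries was 2714 CPM. The genes ranked 3 and 4, both on chromosome 8, stood at 586.4 and 1813.8 CPM in adult library 2. Their medians over the adult libraries were 1794.9 and 5701.7 CPM.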

How the data were processed

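RNA-seq counts of 26 rat liver libraries were used as deposited by the authors, raw read counts per gene. Tools named, per the submitters' processing notes, were STAR 2.5.2b, featureCounts (Subread 1.5.2), Trimmomatic 0.36 and bcl2fastq 2.17, with no order or role given; the sources used here do not name the build, annotation, strand setting or multi-mapping treatment. Members, lists and the window were chosen with earlier results of these data known. Colony and host were compared in edgeR 4.0.16 (quasi-likelihood, robust, TMM, filterByExpr, adjusted p under 0.05 over all genes tested), with the animal as a block. The labels give the same 5 replicate numbers to both tissues, and each number was taken as an animal. Same-numbered deviations correlated at -0.207 to 0.289. The 16 cell libraries were fitted together without a block. Replicate pairs differed beyond sampling noise (44 pairs, lowest chi-square over its degrees of freedom 5.21). P-values measure the spread between these libraries only, and intervals on counts cover counting error only. DESeq2 1.42.0, limma 3.58.1, other filters and scalings, and omitted libraries were tried; the fit was tested on simulated data. All 10 members are named by position, with the 2 next by count and the 2 nearest in pattern over cell groups. Likeness over tissue libraries was left out because only 5 independent differences exist. Lists by symbol (lipocalins, hormone factors, sex-dependent liver genes, cell type markers) could not be applied, since no identifier matched a symbol, and no sequences are shown for that reason.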

Additional observations from a re-analysis of the deposited data

Results flagged for a closer look

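In the group of adult cells, the lowest library stood apart from the other 3 for 9 of the 10 genes and for their sum, and in each case that library was number 2. The gap to the nearest library, divided by the range of the group on log2(CPM + 1), was 0.975 for gene 1, 0.930 for gene 2, 0.947 for gene 3, 0.975 for gene 4 and 0.941 for gene 5. It was 0.971 for gene 6, 0.902 for gene 7, 0.904 for gene 9, 0.906 for gene 10 and 0.964 for the sum, above Dixon's 95% critical value for 4 libraries. In all, 45 groups were examined and 10 passed, where chance passes about 1 in 20; the genes share reads, so the 10 are not independent. The chromosome Y sum of 3.73 CPM in that library, against 120 to 143 CPM in the other adult libraries, moved with them, and its part was not tested.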

How the results depend on the processing

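Few counts limit the fetal values: at most 5 per library fell on gene 4 in either OC2 sort, and read sharing between copies limits every single gene. Between colony and host, 0 members were called under every alternative, including no replicate block; the lowest adjusted p was 0.071 (edgeR, without animal 246). In LAP+/OC2- against LAP+, where 1 was called, no low-count filter gave 0, a stricter filter 2, DESeq2 7, limma-voom 0, the replicate block 7, the 8 libraries compared alone 5, the fit without adult library 2 (chosen after seeing the data) 7, and omission of single libraries 0 to 0. Of all genes tested between LAP+/OC2- and LAP+, DESeq2 called 208 of 13818 and the replicate block 63 of 15297, in either direction. The stricter filter called 55 of 13105 and the 8 libraries alone 56 of 13118. In LAP+/OC2+ against LAP+, where 3 were called, DESeq2 gave 7, limma-voom 0, the replicate block 9 and the fit without adult library 2 gave 9, and no member passed the filter on the 8 libraries alone. Of all genes, DESeq2 called 9542 of 13818 there, the replicate block 9569 of 15297 and the fit without adult library 2 called 9618 of 14123. In LAP+/OC2+ against LAP+/OC2-, where 0 were called, the fit without adult library 2 gave 1. The replicate numbers of the cells share only a number: same-numbered deviations correlated at -0.428 to 0.198, over 0.1 in 2 of 21 pairs.

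Signs turned in 12 of 120 alternative fits of a gene between colony and host, none of them called. The stricter filter gave log2 differences of 0.02, 0.02 and 0.03 for genes 2, 9 and 10, and limma-voom gave 0.02 for gene 9. Omitting single animals gave -0.14 to 0.14 for gene 2, -0.07 to 0.10 for gene 3, -0.04 to 0.18 for gene 7, -0.19 to 0.09 for gene 9 and -0.11 to 0.15 for gene 10, and -0.16 to 0.06 for the mean of the sum. In LAP+/OC2+ against LAP+/OC2-, gene 10 turned to 0.21 with limma-voom and ranged from -1.39 to 0.04 with single libraries omitted. The causes were not tested. Ranking by CPM selected the same 10 genes, and ranking per exon length kept 8 of them.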
